A study of Arabidopsis thaliana with 4 samples.

Results

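This account covers 909 stretches of chromatin on the 5 nuclear chromosomes of Arabidopsis thaliana that carried a called H3 acetylation region in callus and none in leaf, lay at a protein-coding gene, and touched no called region of H3K4me3. They were chosen from the authors' merged lists in 3 steps. Of 20264 merged H3 acetylation (H3ac) regions, 20185 were nuclear and 2855 of those were called in callus alone. Of the 2855, 2153 overlapped a protein-coding gene body extended by 500 bp at each end. An H3K4me3 region of either tissue overlapped 1244 of the 2153 by at least 1 bp, and the 909 left are the members described here. They lay at 986 genes, of which 426 have a symbol other than their locus name.

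The study profiled both marks by chromatin immunoprecipitation sequencing in the accession Col-0, with antibodies against H3ac and H3K4me3. One tissue was the parental mature rosette leaf, and the other was callus formed by leaf explants of 2-week-old seedlings after 15 days on CIM, the medium that induces callus. No other treatment is given in the labels, and both tissues share the genetic background. Each tissue and mark has 1 library, 4 in all, so differences between tissues could not be checked against replicates, no test between tissues was possible, and tissue and time on the medium cannot be told apart.

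Acetyl groups on the tail of histone H3 loosen its hold on DNA and are found at promoters and at the start of transcribed genes. H3K4me3 is laid down mostly just inside the start of genes in use, so in plants the 2 marks usually lie together over the first part of a gene. Callus is a mass of dividing cells that follows a root-like programme set off by auxin, and it loses much of the leaf's programme. In bulk tissue, a change in the share of cells with a mark and a change in the mark per cell cannot be told apart.

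The members were small and faint regions. Their median length was 195 bp (quartiles 151 and 313 bp, longest 2835 bp), and 371 of them (40.8%) had the smallest width in the list, 151 bp, about the DNA of a single nucleosome. Callus-only genic regions that did overlap H3K4me3 had a median length of 307 bp, with 21.9% at the smallest width. The median over all nuclear genic H3ac regions was 775 bp. The authors' score, a value they deposited for each merged region and used here only to describe regions within that list, had a median of 42.9 in members, against 71.6 in callus-only regions with H3K4me3 and 255.5 in all nuclear genic H3ac regions. Only 13 members (1.43%) reached 239.4, the median score of nuclear H3ac. The rule parts members from callus-only regions with H3K4me3 by a 1 bp overlap, which longer regions meet more easily. The shorter members thus follow in part from the choice. Most nuclear H3ac regions (15687 of 20185) were called in both tissues and merged, so they are not like single-tissue calls. Regions called in leaf alone and chosen by the same steps, 549 in number, were close to the members in size, with a median length of 194 bp, 40.3% at the smallest width and a median score of 47.6. Small size was therefore shared by tissue-specific calls without H3K4me3 in both directions. The callus to leaf depth ratio for H3ac was 1.369. Its part in the numbers of callus-only and leaf-only regions, and of list genes with them, was not tested. The plot of region length and of the gap to H3K4me3 shows both distributions.

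**Figure D1:**
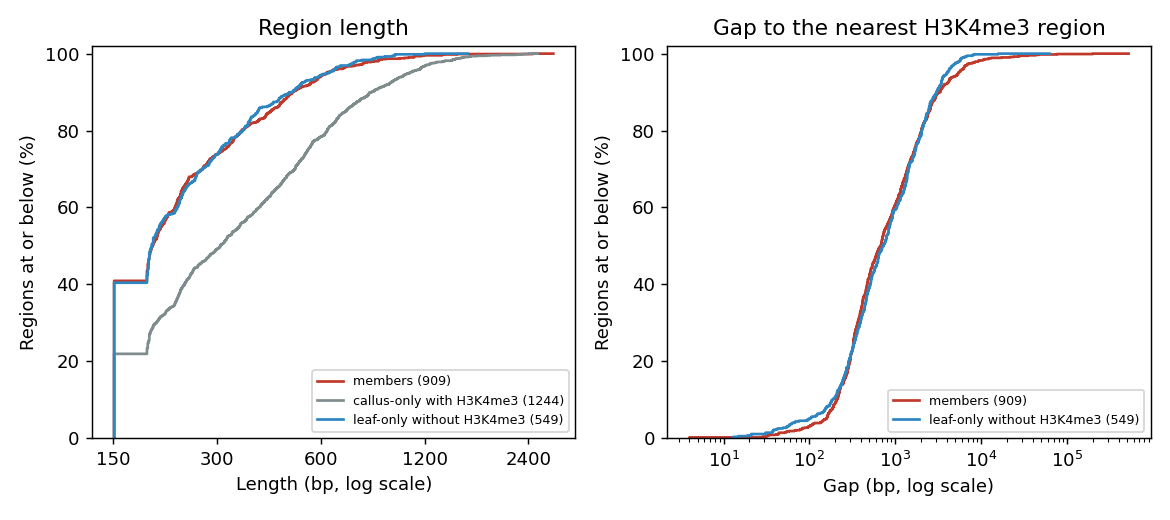
Cumulative share of regions (%) by length (left, bp, log scale) and by the gap to the nearest H3K4me3 region (right, bp, log scale) for the 909 members, the 1244 callus-only genic H3ac regions that overlap H3K4me3 (length only) and the 549 leaf-only genic H3ac regions without H3K4me3. Lines are single libraries' region calls with no error bars. The member and leaf-only lines run close together in both panels, and the line of regions with H3K4me3 lies to the right, at longer lengths. The rule split members from that set by overlap with H3K4me3.

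Members lay near H3K4me3 more often than far from it. The gap between a member and the nearest H3K4me3 region had a median of 681 bp (quartiles 327 and 1692 bp). It was at most 500 bp in 380 members (41.8%), at most 1000 bp in 550 (60.5%) and over 5000 bp in 54. The leaf-only counterpart had a median gap of 731 bp, with 39.0% within 500 bp. The H3K4me3 region nearest to a member was called in both tissues for 84.5% of members, in callus alone for 10.6% and in leaf alone for 4.95%. Over all nuclear H3K4me3 regions these shares were 87.9%, 7.33% and 4.77%, and around leaf-only H3ac regions the shares were 84.9%, 4.37% and 10.7%. The nearest H3K4me3 region of a member was thus more often a callus-only one, and that of a leaf-only region more often a leaf-only one. The rule itself removed every region that overlaps H3K4me3, so the gap says how far the exclusion reached and is not a test.

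The edge of the rule is narrow. The members closest to H3K4me3 lay 4 bp from it (at AT5G03100), 28 bp (at MYB78) and 29 bp (at AIL6). Just outside, the regions with the smallest overlap shared 5 bp with H3K4me3 at ACT2, 6 bp at ENODL19 and 6 bp at AGD1. On the gene side, the members farthest from their gene body lay 497, 496 and 496 bp away, and the next regions outside lay 500, 501 and 504 bp away.

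Within their genes, 510 members (56.1%) had their centre inside a gene body, 41 (4.51%) reached into one by an edge, and 358 (39.4%) lay in the flank alone. Of callus-only genic regions with H3K4me3, 98.0% overlapped a gene body, against 60.6% of members and 74.7% of leaf-only regions without H3K4me3. The rule split members from the first set by overlap with H3K4me3, and 94.3% of H3K4me3 centres lay in gene bodies. The contrast between those 2 sets thus follows in part from the choice. The gene table used here holds no strand, so a flank at the start of a gene and one at its end were not separated. Members in the flank alone had a median length of 207 bp and a median score of 46.0, against 190 bp and 40.4 for those centred in a gene body. The members were spread over all 5 chromosomes, and made up between 4.15% (chromosome 3) and 5.0% (chromosome 2) of the nuclear H3ac regions there.

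Tag numbers were available for the 395 members (43.5%) that the authors' deposited table lists as at least 2-fold higher in callus. A tag number counts tags within a 147 bp window on the middle of the region, with callus scaled to the leaf library. Over all merged H3ac regions 7.98% were so listed, and over callus-only genic regions 48.0%. The rule used the same contrast, so these counts describe the members and support nothing. In the authors' deposited table the listed members had a median of 30.3 callus tags (17.5 to 81.8) and a median of 10.5 leaf tags (1.0 to 27.5). Their median fold in the authors' deposited table was 2.88 (quartiles 2.36 and 3.83). Leaf tags were therefore present at all of these regions, and a call in callus alone does not mean that leaf tags were at 0. Without an input library, these leaf tags cannot be told from background. The fold was 4 or more in 86 members (9.46% of all members, against 2.13% of all merged H3ac regions), and 13 listed members had at most 3 leaf tags. Exact 95% intervals of the fold, which cover counting error only, lay above 1 for 389 of the 395 and above 2 for 69. The listing already required a fold of at least 2 and a Poisson p of at most 0.01 on the same tags. Intervals above 1 thus follow largely from the listing. For the 514 members not listed, no tag numbers were used here.

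**Figure D2:**
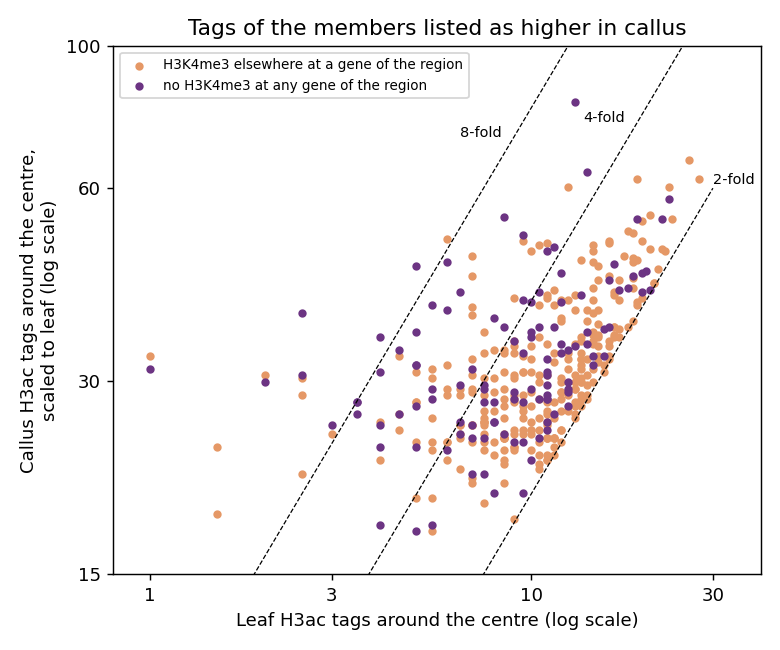
Callus H3ac tags (scaled to leaf) against leaf H3ac tags, both in 147 bp around the centre and on log scales, for the 395 listed members, 1 point per region and 1 library per tissue. Dashed lines mark 2-, 4- and 8-fold. Points crowd just above the 2-fold line at about 10 leaf tags (median 10.5), and the few at 3 leaf tags or lower reach the largest folds.

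Members whose genes carried no H3K4me3 at all were listed as higher in callus more often than the rest. They were 202 of the 909 (22.2%), their median gap to H3K4me3 was 2576.5 bp, and the authors' deposited table listed 114 of them (56.4%) with a median fold of 3.29. Of the 671 members whose genes all had H3K4me3 elsewhere, it listed 264 (39.3%) with a median fold of 2.77, at a median gap of 452 bp. The larger gap follows from how these groups were defined. The shares and medians come from single libraries, and their differences were not tested.

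The members with the largest folds lay at genes of varied function. Among listed members with at least the median callus tags, those whose genes have a symbol are ranked here. DXPS1, an isoform related to the first enzyme of the plastid isoprenoid pathway, had 31.4 callus and 1.0 leaf tags in the authors' deposited table, a fold of 31.41 (interval 5.34 to 1270). With a single leaf tag, its fold is bounded loosely. The region (chr3:7575891-7576385, TAIR10) lay in the gene body, 2416 bp from H3K4me3, and the gene had no H3K4me3 region. AIL6, also named PLT3, is an AP2-type factor of root and shoot stem cells and had 30.3 callus and 2.5 leaf tags in the authors' deposited table, a fold of 12.12 (3.54 to 75.6), in a 151 bp region inside the gene (chr5:3318378-3318528). Some genes with no symbol had folds in the same range in the authors' deposited table, 32.87 (5.61 to 1330) at AT2G47570, again with 1.0 leaf tag, 15.34 at AT4G33420 and at AT3G28540, 12.27 at AT1G54575 and 7.67 (3.33 to 21.7) at AT3G23145.

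CYP81F4, a cytochrome P450 that modifies indole glucosinolates, lay next to a 554 bp region with 45.3 callus and 5.0 leaf tags in the authors' deposited table, 9.06-fold (3.68 to 28.9). GDU1, a glutamine dumper protein that promotes amino acid export, had 50.0 and 6.0 tags there, 8.34-fold (3.64 to 23.5). GDU4, of the same family, had 43.8 and 7.0 tags, 6.26-fold (2.86 to 16.2), in a 1118 bp region. Both dumper genes thus carried a longer region than the median member. ICL, isocitrate lyase of the glyoxylate cycle, had 32.9 and 4.5 tags in the authors' deposited table, 7.3-fold (2.8 to 25.5).

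The other large folds at genes with a symbol lay at CEP1 at AT5G50260 (here a cysteine endopeptidase and not a signalling peptide) with 8.76 (3.21 to 33.5), and at BNQ3, a small helix-loop-helix protein, with 7.47 (2.86 to 26.0), both from the authors' deposited table. SDR2, a short-chain dehydrogenase, had 7.17 (2.99 to 21.5), and ASL5, of the LBD family, had 7.16 (2.87 to 23.0). CBL8, a calcium sensor that works with protein kinases, had 6.45 (2.77 to 18.4) in a region of 1017 bp. Of the 10 regions with a gene symbol named by the largest fold, 7 had no H3K4me3 region at their genes in either tissue. The same held for 114 of the 395 listed members, from which the 10 were drawn, and for 22.2% of all members. All 10 intervals excluded 2. Members of high fold were picked by the fold, so this is a description.

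**Figure D3:**
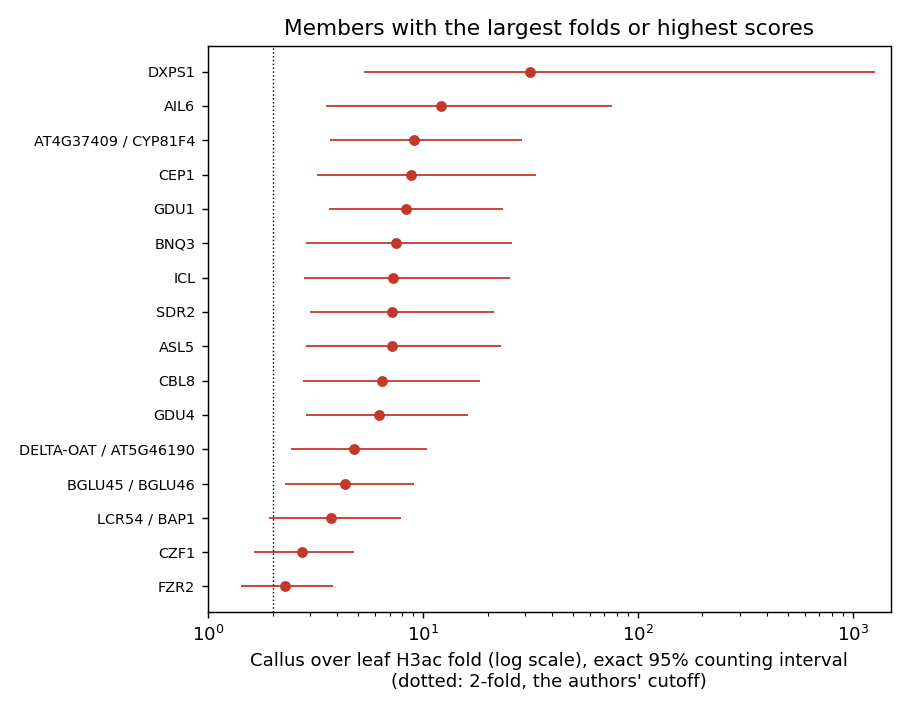
Callus over leaf H3ac fold (log scale) for listed members named by the largest fold or the highest score. Points are folds of the authors' deposited table and bars are exact 95% counting intervals; the dotted line is 2-fold. The interval of DXPS1 runs from 5.34 to 1270, while those of CZF1, FZR2 and LCR54/BAP1 reach below 2.

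The highest score and the greatest length belonged to a single locus of beta-glucosidases. BGLU45 and BGLU46, enzymes that release monolignols for lignin from their sugar conjugates, shared a region of 2835 bp with a score of 946.8 (chr1:22833263-22836097), with 47.8 callus and 11.0 leaf tags in the authors' deposited table, a fold of 4.35 (2.28 to 9.13). BGLU45 held 3 more members to the same side, at 452, 151 and 694 bp. The authors' deposited table gave 2 of these 3 folds, 3.24 (1.48 to 8.07) and 6.36 (3.12 to 14.8). The 4 regions spanned 6065 bp, the nearest H3K4me3 lay 4050 bp away, and neither gene had an H3K4me3 region. This was the member locus that looked least like a faint isolated call.

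Among the other members with a high score and a symbol, most lay at genes with H3K4me3 elsewhere, and CBL8 did not. A region in the flanks of PCK1, phosphoenolpyruvate carboxykinase of gluconeogenesis, and of AT4G37880 had the second score, 600.2, over 2478 bp. It lay 259 bp from H3K4me3, cannot be assigned to one gene, and was not listed as higher. CZF1, a stress-induced zinc finger protein, had a score of 306.7 and a fold of 2.73 (1.64 to 4.76) in the authors' deposited table. The region in the flank of DELTA-OAT, ornithine aminotransferase, had a score of 266.9 and a fold of 4.78 (2.44 to 10.4) there. It overlaps the body of AT5G46190 and cannot be assigned to one gene. FZR2, an activator of the anaphase-promoting complex that drives endoreduplication, had a score of 246.4 and a fold of 2.28 (1.42 to 3.81). The region by BAP1, a membrane-bound inhibitor of cell death, had a fold of 3.72 (1.93 to 7.87) and lies also by LCR54. Those at PLDDELTA/NRPB1 and PnsB4/AT1G18740 were not listed. Some members at genes with no symbol also scored high, with 416.2 beside AT3G27490 and AT3G27495 and 242.3 beside AT4G33420, and none of these genes had H3K4me3.

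The members farthest from H3K4me3 that have a symbol were at WRKY38, a WRKY factor of defence. Its 2 regions lay 12024 and 10583 bp away, the first with 39.8 callus and 10.0 leaf tags in the authors' deposited table, 3.98-fold (2.01 to 8.76). RTFL21, of the DEVIL family of small growth regulators, lay 10572 bp away and had a fold of 2.03 (1.21 to 3.54) there. MYB74 (9556 bp) and WPP3 (9309 bp) were not listed. Larger gaps up to 523233 bp occurred at genes with no symbol.

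Members also came in runs. With neighbours at most 5000 bp apart, 230 members (25.3%) fell into 101 runs, and 20 runs held 3 or more. For callus-only regions with H3K4me3, a larger set, 17.7% were in runs and 10 runs held 3 or more. For leaf-only regions without H3K4me3, a smaller set, the values were 19.9% and 3. Density alone raises the share in runs, and the 3 sets differ in size. At the level of genes, 68 carried at least 2 members, 10 at least 3, and BGLU45 had the most, 4.

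Some runs took in neighbouring genes of a family. KIN1 and KIN2, cold- and abscisic acid-induced proteins, lay in a run of 5 regions over 7039 bp that also took in AT5G15940 and AT5G15950. The authors' deposited table listed 3 of the 5, at KIN1 (2.31-fold), AT5G15940 (2.33-fold) and AT5G15950 (2.77-fold). GSTU8, a tau-class glutathione transferase, carried 3 regions, 2 of them listed there at 2.12 (1.25 to 3.75) and 2.29 (1.14 to 5.01). GSTU4, GSTU5 and GSTU6, tandem genes of the same class, shared another run of 3. A run of 5 at AT3G46690 and AT3G46700 had 2 listed regions, at 2.92 and 4.75 in the authors' deposited table. MAP3KA, a protein kinase kinase kinase, also carried 3 members, and GH3.1, MYB108, HMA4, PROPEP4 with its neighbour PEP7, and WRKY38 lay in runs of 2.

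Most member genes also carried acetylation found in both tissues, though fewer of them than acetylated genes in general. Of the 986 genes, 703 (71.3%) also held an H3ac region called in both tissues, against 91.0% of all genes with nuclear genic H3ac, 216 (21.9%) held no H3ac region other than members, and 183 had neither another H3ac region nor H3K4me3. Most nuclear H3ac regions (15687 of 20185) were called in both tissues, while a member gene enters by a callus-only region and needs a further, shared one. The share below 91.0% thus follows in part from the choice of members. Genes with leaf-only regions had nearly the same share with a shared region, 71.5%, while genes with callus-only regions that overlap H3K4me3 had 42.0%. Median gene length was 2387 bp for members, against 2398 bp for that set and 2508 bp for the leaf-only one.

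Most member genes had H3K4me3 outside the member, but a smaller share of them than of acetylated genes in general. Of the 986 genes, 775 (78.6%) had an H3K4me3 region within 500 bp of the gene body, against 97.6% of all genes with an H3ac region and 73.3% of all nuclear protein-coding genes. The 211 member genes without one were 21.4%, against 2.4% of genes with an H3ac region and 21.6% of genes with leaf-only regions without H3K4me3. The rule removed regions that touch H3K4me3, so a lower share follows in part from the choice of members. H3K4me3 enters the rule by its position in either tissue, so H3ac regions that touch a callus-only H3K4me3 region were left out of the members. Its change between tissues is therefore not independent of the choice of members. Callus-only H3ac and higher H3K4me3 also come from the same pair of tissues. Of the 775 genes, 698 held an H3K4me3 region called in both tissues, 88 (11.4%) one called in callus alone, and 42 (5.42%) one called in leaf alone, against 7.54% and 4.93% of all 20127 genes with H3K4me3. The authors' deposited table listed H3K4me3 as higher in callus at 88 of the 775 (11.4%), against 8.01% of all genes with H3K4me3. It was at least 4-fold higher at 46 (5.94%, against 3.16%), and the median fold of the 88 was 4.07. Genes with leaf-only regions without H3K4me3 had 4.04% listed, and genes with callus-only regions that overlap H3K4me3 had 42.7%. The share for member genes was thus slightly above the background and far below that of genes where both marks met in the region. The rule itself split those sets by overlap with H3K4me3, so this contrast follows in part from the choice. With 1 library per tissue and mark, no test of these shares over samples was possible.

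**Figure D4:**
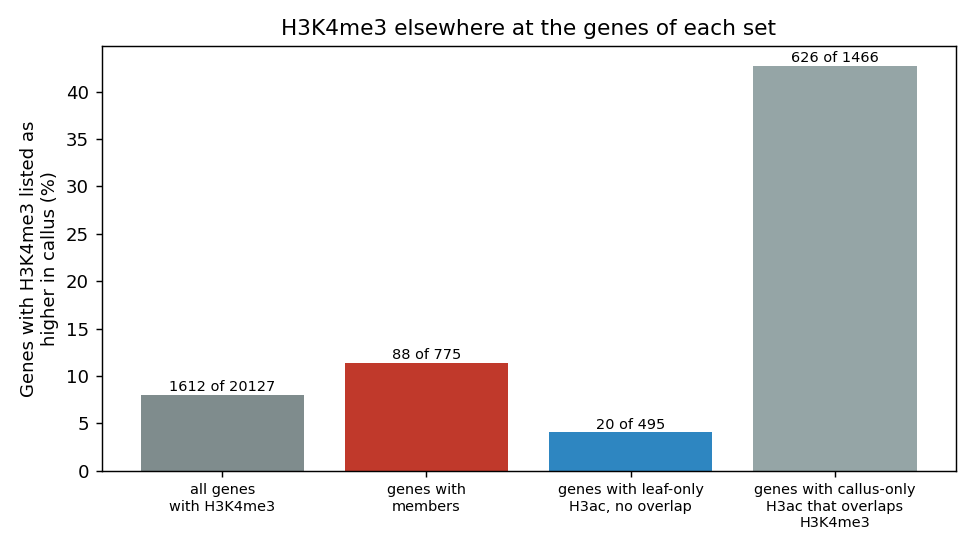
Share of genes (%) whose H3K4me3 the authors' deposited table lists as higher in callus, among genes with an H3K4me3 region, for all genes, genes with members, genes with leaf-only H3ac regions without H3K4me3, and genes with callus-only H3ac regions that overlap H3K4me3. Bars start at 0 and have no error bars, with 1 library per tissue and mark. Member genes (11.4%) lie near all genes (8.01%), and the last set is far above (42.7%). The rule split members from the last set by overlap with H3K4me3.

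Some genes combined a small member with a large H3K4me3 difference beside it. These examples were chosen after their values were seen. MYB78 had 92.1 callus and 2.0 leaf H3K4me3 tags in the authors' deposited table, 46.03-fold (12.4 to 386), beside a member with 30.3 and 5.5 H3ac tags, 5.51-fold (2.26 to 16.7). UPB1, a bHLH factor that controls the switch from division to elongation in the root, had 156.1 and 8.5 H3K4me3 tags there, 18.36-fold (9.27 to 42.0), and a member at 2.60-fold (1.21 to 6.19). ABCB19, an auxin exporter, had 107.8 and 4.5 H3K4me3 tags, 23.96-fold (9.55 to 81.3), and a member at 3.21-fold in the authors' deposited table. SRS7, of the SHI-related family, had an H3K4me3 fold of 10.13 (4.67 to 26.1) there and a member at 3.60 (1.62 to 9.24). At each of these genes the larger fold was that of H3K4me3, which follows from how they were picked. At other member genes, such as AIL6 and ICL, the H3ac fold of the member was the larger.

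Gene families were described with 18 lists drawn by symbol. A member was present at 5.19% of genes with an H3ac region, and at 3.59% of all 27444 nuclear protein-coding genes. Over all lists, 140 of 1658 genes with an H3ac region had a member (8.44%). This share is above 5.19%, but genes with a family symbol can differ from the rest in length, level and number of regions, whose part in it was not tested. For callus-only regions with H3K4me3 the share was 12.5% in the lists and 7.73% over all genes, and for leaf-only regions without H3K4me3 it was 4.58% and 3.32%. All 3 sets were thus above their own background in the lists.

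**Figure D5:**
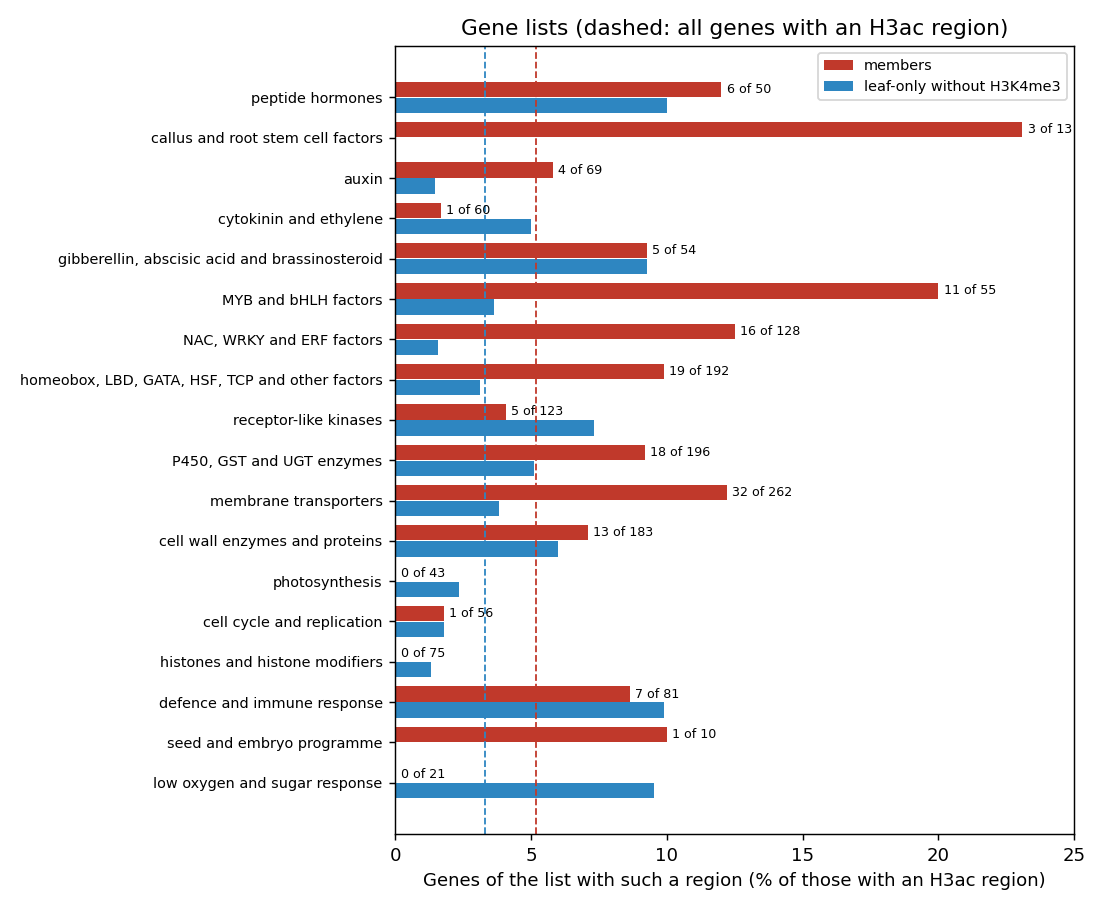
Share of the genes of each list with an H3ac region (%) that carry a member (red) or a leaf-only H3ac region without H3K4me3 (blue); labels give members' genes of all with an H3ac region, and dashed lines give the share over all genes, 5.19% and 3.32%. The MYB and bHLH list reached 20.0% (11 of 55), and the photosynthesis, histone and low-oxygen lists had no member. The lists were drawn with results known.

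Transcription factors were among the lists furthest above 5.19%. Of the MYB and bHLH list, 11 of 55 genes with H3ac had a member (20.0%), against 2 (3.64%) with a leaf-only region. The authors' deposited table listed 8 of the 11 as higher in callus. After MYB78, the largest fold was at BHLH92, a bHLH factor of osmotic stress, with 48.6 callus and 11.5 leaf tags there, 4.22-fold (2.24 to 8.72), in 639 bp and with no H3K4me3 at the gene. A region by MYB2, an abscisic acid-responsive factor, had 2.79-fold (1.43 to 5.9), but it lies in the bodies of AT2G47200 and AT2G47210 and cannot be assigned to one gene. BHLH100, of iron homeostasis, and MYB62, of phosphate starvation, had 2.56 (1.28 to 5.54) and 2.48 (1.2 to 5.63) in the authors' deposited table.

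Of the NAC, WRKY and ERF list, 16 of 128 genes with H3ac had a member (12.5%), 9 of them listed, against 2 genes (1.56%) with a leaf-only region. WRKY57 had the largest fold, 4.38 (1.76 to 13.5), from 24.1 callus and 5.5 leaf tags in the authors' deposited table. WRKY36 had 3.79 (1.75 to 9.35), ERF12 had 3.1 (1.78 to 5.74) and WRKY14 had 2.88 (1.33 to 7.02). CUC3, a NAC factor of organ boundaries, and CBF1, a cold-response activator, had members that were not listed. The list of homeobox, LBD, AHL, MADS and TCP factors, which also takes in GATA, ZFP, heat shock and other factors, had 19 of 192 (9.9%), with 7 listed, against 6 (3.12%) with a leaf-only region. Beside ASL5, LBD31 had 5.71 (2.35 to 17.3), HSFA6B, a heat shock factor tied to abscisic acid, had 4.25 (1.7 to 13.1) and TCP14, a growth regulator, had 3.46 (1.55 to 8.88) in the authors' deposited table.

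Regulators of callus and root stem cells were few in number, though their share with a member was the highest of the 18 lists. Of 13 genes with H3ac, 3 had a member (23.1%), 0 had a leaf-only region without H3K4me3, and 8 (61.5%) had a callus-only region that overlaps H3K4me3. Besides AIL6, the members lay at LBD18, a lateral root factor, and at ARF19, an auxin response factor that acts in callus formation. Neither of those 2 was listed. All 3 members lay near H3K4me3, at 29 bp (AIL6), 330 bp (LBD18) and 443 bp (ARF19). With no H3K4me3 allowed within 500 bp, the count of this list fell from 3 to 0. H3K4me3 elsewhere was listed as higher at all 3 genes in the authors' deposited table, 2.61-fold (2.04 to 3.36) at AIL6, 2.24-fold (1.77 to 2.86) at ARF19 and 9.66-fold (4.67 to 23.2) at LBD18.

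The other hormone lists held few members. Of the auxin list, 4 of 69 genes had a member (5.8%), against 1 (1.45%) with a leaf-only region, and GH3.1, an enzyme family that conjugates auxin, had 2. One had 23.7 callus and 1.5 leaf tags in the authors' deposited table, 15.83-fold (3.42 to 228), and the other 36.9 and 15.0, 2.46-fold (1.36 to 4.71). IAA28, a repressor of auxin response, had a 494 bp region that was not listed, and ARF2 shared one with HSFB2A. Of the cytokinin and ethylene list, 1 of 60 had a member (1.67%), against 3 (5.0%) with a leaf-only region. It was the early cytokinin response gene RR5 with 34.3 and 11.0 tags there, 3.12-fold (1.59 to 6.67).

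Of the gibberellin, abscisic acid and brassinosteroid list, 5 of 54 had a member (9.26%), the same share as with a leaf-only region. ABF3, a bZIP factor of abscisic acid response, had 3.08 (1.47 to 7.26) and RGL1, a DELLA repressor, had 2.25 (1.18 to 4.58) in the authors' deposited table, while RGA1, GA2OX6 and NCED2 were not listed. Outside the lists, and chosen after their values were seen, further abscisic acid signalling genes had members of small fold. A region by OST1, the kinase that closes stomata, had 2.41 (1.29 to 4.81), PP2CA, a phosphatase that holds that kinase back, had 2.74 (1.56 to 5.09), and HAI1, of the same phosphatase group, had 2.13 (1.06 to 4.59) in the authors' deposited table. A region shared by AT2G33370 and RD20, a drought-induced calcium-binding protein, had 2.01 (1.01 to 4.27), the smallest of these.

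The study's title concerns peptide hormones, and 6 of the 50 peptide genes with H3ac had a member (12.0%), against 5 (10.0%) with a leaf-only region and 9 (18.0%) with a callus-only region that overlaps H3K4me3. The authors' deposited table listed 5 of the 6. The region in PEP7 and beside PROPEP4, precursors of danger peptides, had 32.5 callus and 7.0 leaf tags there, 4.64-fold (2.08 to 12.2). RGF8, of the root meristem growth factors, had 19.7 and 5.0 tags, 3.94-fold (1.5 to 13.1), in 151 bp that lie 479 bp from an H3K4me3 region called in callus alone. PROPEP3, CLE13 and RTFL21 had smaller folds, 2.34 (1.21 to 4.82), 2.19 (1.33 to 3.73) and 2.03. TPST, the enzyme that sulfates RGF and PSK peptides, is no hormone and was picked after its value was seen. It had a 151 bp member inside the gene that was not listed.

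The transporter list held the largest number of genes with a member among the 18 lists. Of membrane transporters, 32 of 262 genes with H3ac had a member (12.2%), 16 of them listed, against 10 (3.82%) with a leaf-only region. HMA4, a zinc exporter, had 49.7 callus and 9.5 leaf tags in the authors' deposited table, 5.23-fold (2.64 to 11.6), and a second member that was not listed. GLR2.5, of the glutamate receptor-like channels, had 63.5 and 14.0 tags there, 4.54-fold (2.56 to 8.64), 5486 bp from H3K4me3. A region at ABCB5 and next to ABCB3 had 3.76 (1.6 to 10.5) and ABCG35 had 3.43 (1.79 to 7.15). Of the P450, glutathione transferase and glycosyltransferase list, 18 of 196 had a member (9.18%), with 8 listed, against 10 (5.1%) with a leaf-only region. After CYP81F4, the largest folds there were at CYP94B3, which inactivates jasmonoyl-isoleucine, with 5.6 (2.1 to 19.8), and at CYP79F2, of aliphatic glucosinolate synthesis, with 3.99 (1.71 to 11.1).

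Of cell wall genes, 13 of 183 had a member (7.1%), 7 of them listed, against 11 (6.01%) with a leaf-only region. LAC2, a laccase, had 26.7 callus and 3.5 leaf tags in the authors' deposited table, 7.62-fold (2.59 to 33.2), and EXLA3, an expansin-like protein, had 41.3 and 6.5 tags, 6.35-fold (2.82 to 17.2). Neither gene had H3K4me3. EXPA6 had 3.76 (1.92 to 8.1), LAC5 had 3.65 (1.6 to 9.76) and CSLG3 had 3.22 (1.51 to 7.78). Of defence genes, 7 of 81 had a member (8.64%), against 8 (9.88%) with a leaf-only region. Of the 7, 5 were of the LCR family of defensin-like peptides, among them LCR39 with 3.32 (1.75 to 6.81) and LCR18 with 2.87 (1.26 to 7.48) in the authors' deposited table.

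The remaining lists held few members. Receptor-like kinases had 5 of 123 (4.07%), against 9 (7.32%) with a leaf-only region, with only CRK23 listed, at 2.58 (1.12 to 6.8) in the authors' deposited table. Cell cycle and replication had 1 of 56 (1.79%), the kinase inhibitor KRP6, not listed, and the seed programme 1 of 10, LEA18. Photosynthesis (0 of 43), histones and histone modifiers (0 of 75) and the low-oxygen and sugar response (0 of 21) had none. A leaf-only region was present at 1 gene each of the cell cycle, photosynthesis and histone lists and at 2 of the low-oxygen list (9.52%). Of the low-oxygen list, 8 genes (38.1%) had a callus-only region that overlaps H3K4me3. Counts this small would move by a large share with 1 gene more or less.

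A stretch of chromosome 2, taken by locus name, carried 6 members, all 151 bp long and 21571 to 201082 bp from H3K4me3. Part of the stretch is known to hold inserted mitochondrial DNA, and which of the 6 lie in that part was not checked. The authors' deposited table listed 5 of them, at 2.51- to 4.47-fold. All 77 H3ac regions on the mitochondrial chromosome itself were called in callus alone. The part of mitochondrial DNA in these 6 members was not tested. Without them 903 members were left, with 390 listed, a median fold of 2.88 and a median gap of 666 bp.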

How the data were processed

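Regions of both marks were called per library and merged with HOMER mergePeaks, and callus was compared with leaf with HOMER's tool for differential regions (fold of at least 2, Poisson p of at most 0.01), per the file headers. HOMER 4.10.4 is also in the submitters' processing notes, with SAMtools 1.11, Bowtie2 2.3.4.3 and the build TAIR10. For read filters and calling settings, the sources used here give nothing. The files hold no input library. The authors deposited a score per merged region, the tag signal in 147 bp for each tissue, and the fold, which is their ratio. Callus tags lay on steps of 0.3652 where leaf tags lay on 0.5 for H3ac, a depth ratio of 1.369 (1.016 for H3K4me3). Total depth is unknown.

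Members were picked by overlap of region and gene coordinates. Genes came from RefSeq (TAIR10.1, 27444 nuclear protein-coding genes, no strand), which was used for names and overlap, and only coordinates of the authors' files are printed. The share of H3K4me3 centres in gene bodies was 94.3%, and 66.6% to 67.8% after shifts of 2000 and 4000 bp. For each fold, an exact 95% interval (Clopper-Pearson, conditional on the sum of the unscaled tags) was computed. The intervals take a tag as 1 read, cover counting error only, and do not allow for selection by fold. The interval code was checked on simulated data.

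Members, the 18 gene lists and the naming rule were chosen with earlier results of these data known. The rule named the 10 largest folds among listed members with at least the median callus tags, the 10 highest scores, the 5 longest and the 5 farthest from H3K4me3 (with a symbol), up to 5 genes per list, the 3 regions on each side of the overlap edge, and genes with 2 or more members. Genes with 2 members are named in part. From the lists, 42 entries that only share a symbol (14-3-3 proteins, catalases, cysteine endopeptidases and the like) were left out after values were seen. Python 3.11.15, pandas 2.3.3, numpy 2.4.6 and scipy 1.17.1 were used.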

Additional observations from a re-analysis of the deposited data

How the results depend on the processing

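Each choice in the rule was changed in turn. Without the 500 bp flank, 551 members at 533 genes were left, 70.0% of the genes had H3K4me3, and 76 genes of the lists had a member (main values 909, 986, 78.6% and 140). With no H3K4me3 allowed within 500 bp, 529 members at 539 genes were left, of which 48.4% were listed as higher (main 43.5%), with 61.6% of genes having H3K4me3 and 86 list genes. With only scores at or above the median of nuclear H3ac, 13 members at 18 genes were left, with a median length of 1180 bp, 84.6% listed, 72.2% of genes with H3K4me3 and 0 list genes. With only listed members, 395 at 425 genes, the median length was 215 bp, 71.8% of genes had H3K4me3 and 70 list genes were left. With 1 tag added in both tissues, the median fold was 2.72 (main 2.88). The counts of members, member genes and list genes fell in the settings that kept fewer regions, and the added tag changed the fold alone. A flank of 1000 bp, an H3K4me3 region that must cover the larger part of the member, and leaving out the chromosome 2 stretch (chosen after seeing the data) moved the counts of members, member genes and list genes in all by less than 1.5 times. Single lists moved more: 8 under the 1000 bp flank (peptide hormones from 6 to 11, auxin from 4 to 7, defence from 7 to 11), 3 under the cover setting and 0 without the stretch. Over the 18 lists and 7 settings, 56 list counts moved by more than 1.5 times and 70 did not. No paired analysis was possible because each tissue and mark has 1 library, and for the same reason no library could be left out. Faint regions near the smallest width limit what these calls can show.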
